A study of Mus musculus with 39 samples.

Results

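Middle S domains are the stretches of the mouse ES cell genome whose replication timing (RT) value lay closest to 0, between the clearly early and the clearly late domains. The RT value is the log2 ratio of newly made DNA in the earlier fractions of S phase to that in the later fractions, quantile normalized. A domain with a positive RT value is called early and one with a negative RT value late. Members were chosen by the RT value alone. Among the 1598 autosomal RT domains that did not begin at a chromosome start, those with an absolute RT value at or below the 25th percentile, 0.47 on the log2 scale, were taken, which gave 400 domains, 203 with a positive value (middle early) and 197 with a negative value (middle late). They covered 236 Mb of the 2299 Mb in this set, or 10.3%. The other domains, 546 early and 652 late, served for comparison. The full list held 1811 RT domains, of which 194 on chromosomes X and Y and 19 at the starts of autosomes were left out.

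All samples came from wild type R1 cells, a single line of mouse ES cells grown with serum and leukemia inhibitory factor, with no treatment that separates the groups used here. For RT, cycling cells were labelled with BrdU, a thymidine analog that enters new DNA, sorted by DNA content into the fractions S1 to S4, and the labelled DNA was sequenced in 8 libraries, 4 fractions in each of 2 experiments. For wrapping, 4 libraries of H3-wrapping-seq from 2 experiments gave the lengths of the DNA fragments that nucleosomes had protected from the nuclease MNase in crosslinked chromatin. The lists of RT domains and of NRDs used here give 1 value per domain, with neither replicate columns nor read counts, and tracks of single experiments were not analysed here. The depth behind a domain can therefore not be given, and the spread is the SD over the 19 autosomes, which is not replicate error.

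DNA replication follows a set program in which large domains fire their origins together. Early domains tend to be rich in genes and in C/G, late domains poor in both, and many stretches between them are replicated by forks that move in from early neighbours. In a nucleosome, DNA wraps around a histone octamer and can peel off at its ends. Nucleosome wrapping domains (NRDs) with a positive wrapping index, TiNRDs, hold more long protected fragments (tight wrapping), and LoNRDs, with a negative index, hold more short ones (loose wrapping). Before normalization, a ratio near 0 can come from DNA labelled mainly in S2 and S3 or from DNA labelled evenly in all 4 fractions. After quantile normalization an RT value of 0 need not mean equal label in the earlier and the later fractions. The values of single fractions were not analysed here, so the name middle S stands for the RT value and not for an observed time of labelling.

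The sequences below show what these domains are made of. For each sign, 200 bases are given from the centre of the domain whose value was closest to 0 and of the domain with the highest A/T content, and for the late sign also of the domain with the lowest, on the plus strand of GRCm38 (mm10), with CG dinucleotides in capitals.
Early, closest to 0, chr17:73024901-73025100: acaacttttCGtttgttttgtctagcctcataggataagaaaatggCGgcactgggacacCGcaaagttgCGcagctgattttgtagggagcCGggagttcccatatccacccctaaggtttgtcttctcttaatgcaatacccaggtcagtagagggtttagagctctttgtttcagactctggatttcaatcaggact
Early, highest A/T, chr1:140424901-140425100: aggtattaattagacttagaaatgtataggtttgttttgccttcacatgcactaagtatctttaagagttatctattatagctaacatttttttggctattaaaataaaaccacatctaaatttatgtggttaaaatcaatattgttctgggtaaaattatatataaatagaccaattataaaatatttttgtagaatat
Late, closest to 0, chr10:86374901-86375100: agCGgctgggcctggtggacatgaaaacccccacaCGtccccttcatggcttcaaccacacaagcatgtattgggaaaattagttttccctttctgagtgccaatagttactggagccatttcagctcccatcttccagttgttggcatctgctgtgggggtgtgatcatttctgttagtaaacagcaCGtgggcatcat
Late, highest A/T, chr17:40174901-40175100: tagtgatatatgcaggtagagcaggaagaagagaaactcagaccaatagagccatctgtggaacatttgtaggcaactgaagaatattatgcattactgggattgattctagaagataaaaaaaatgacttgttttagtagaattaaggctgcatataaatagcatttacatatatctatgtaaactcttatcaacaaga
Late, lowest A/T, chr6:114249901-114250100: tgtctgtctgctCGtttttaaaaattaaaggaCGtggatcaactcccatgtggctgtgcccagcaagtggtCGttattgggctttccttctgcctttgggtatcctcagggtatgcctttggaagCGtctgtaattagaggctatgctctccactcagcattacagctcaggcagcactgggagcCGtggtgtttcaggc
Neither window from the domains of highest A/T content held a CG, and A and T made up 77.0% of the early and 67.5% of the late window. The window from the late domain of lowest A/T content held 5 CGs, and those from the domains closest to 0 held 5 (early) and 3 (late). Among all centre windows of the same length, 71.6% held at least 1 CG (1144 of 1597 with assembled sequence), compared with 70.9% for middle early and 67.9% for middle late domains. A window of this size is a sample and not the composition of its domain: the early window of highest A/T content had 77.0% A/T, while its whole domain had 64.3%.

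In each class the 1 member closest to 0 lay wholly in a TiNRD. This did not hold for all members near 0, as 11 of 23 early domains with values up to 0.20 were mostly in TiNRDs. The middle early domain closest to 0, chr17:72850001-73200000, had an RT value of 0.07 and touched late domains of -0.80 and -0.77. Its whole length lay in a TiNRD with an index of 0.56, and it held the starts of 2 protein-coding genes, Lclat1, an acyltransferase that remodels cardiolipin, and Lbh, a transcription cofactor named for its expression in limb bud and heart. The middle late domain closest to 0, chr10:86200001-86550000, had a value of -0.04, lay between early domains of 1.05 and 0.31, and was also wholly in a TiNRD, with an index of 0.81. It held the starts of Syn3, a synapsin of synaptic vesicles, and Timp3, an inhibitor of metalloproteinases. At the threshold, the last domains inside were chr8:127250001-129100000 at -0.4704 and chr10:27800001-28250000 at 0.4707, and the first outside were chr12:113900001-114300000 at 0.4707 and chr3:57850001-58300000 at -0.4739, so the limit does not separate distinct classes.

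Middle S domains were divided almost evenly between tight and loose wrapping, and the sign of their RT value did not sort them. A domain was counted as mostly in TiNRDs when at least 50% of its length lay in them. This was so for 112 of 203 middle early domains (55.2%) and for 118 of 197 middle late domains (59.9%), beside 54.8% of all 1598 domains, 79.7% of all early domains and 32.9% of all late domains. The other early domains reached 88.8% (485 of 546) and the other late domains 24.7% (161 of 652). Mostly in LoNRDs were 92 middle early (45.3%) and 79 middle late domains (40.1%), beside 45.9% of all domains. Exactly equal shares put 2 members in both counts, and 1 member was in neither.

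By length, TiNRDs took 58.1% of the called length of middle early domains and 58.2% of that of middle late domains, compared with 91.3% in other early and 19.5% in other late domains. The index of a domain is here the mean, over its called length, of the values of the NRDs that cover it, with 1 value per NRD. The 290 members that lay in a single NRD thus carry the value of that whole NRD, and wrapping within them was not measured. This index had a median of 0.08 in middle early domains (quartiles -0.67 and 0.47) and of 0.34 in middle late domains (quartiles -0.37 and 0.77). The other domains had medians of 0.55 (early) and -0.45 (late). Across the 400 members the index and the RT value had a Spearman rho of -0.13 and a Pearson r of -0.17. Within middle early domains these were -0.02 and -0.04 and within middle late domains 0.22 and 0.21. The coefficients are given as a description, since the value chose the members and neighbouring domains share NRDs.

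**Figure D1:**
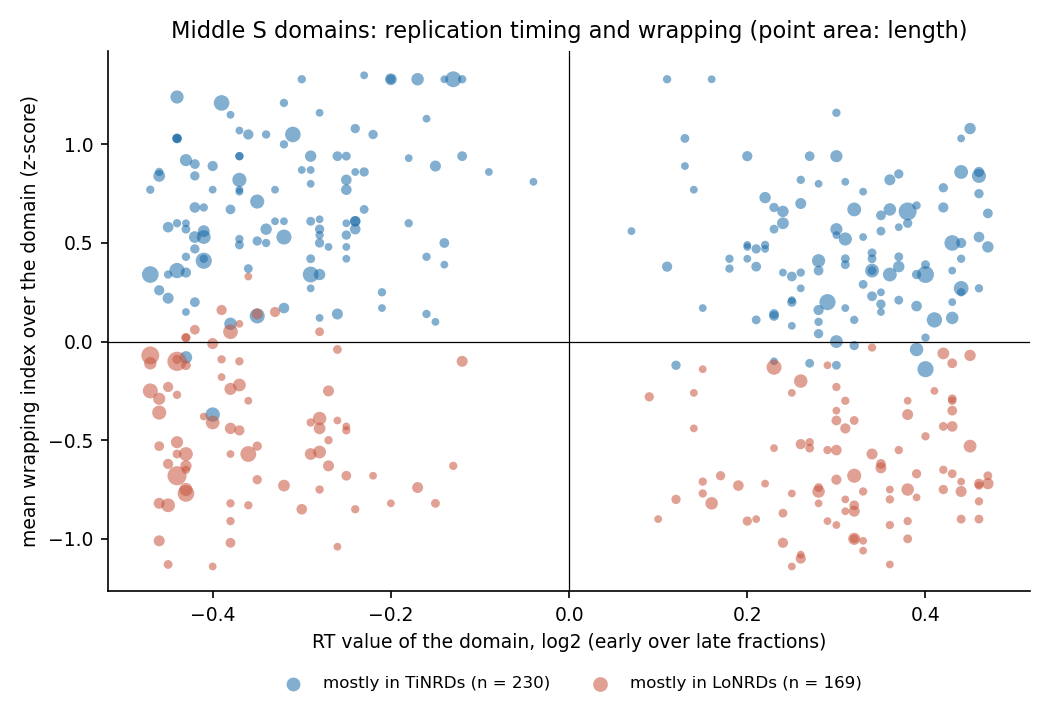
RT value of each of the 400 middle S domains (log2, horizontal axis) against the mean value of the NRDs that cover it (z-score, vertical axis). Point area follows length, with blue for mostly in TiNRDs (n = 230) and red for the rest mostly in LoNRDs (n = 169). The 1 domain with neither majority is not drawn, and domains in the same NRD share its value. Points of both colors fill both sides of 0, and no domain lies between RT values of -0.04 and 0.07.

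Single chromosomes varied widely around these shares. The TiNRD share of the called length was 60.2% ± 14.1 (SD, n = 19 autosomes) in middle early domains, from 33.8% on chromosome 15 to 87.2% on chromosome 8. In middle late domains it was 57.4% ± 16.8 (SD, n = 19), from 28.0% on chromosome 10 to 100% on chromosome 12, where there were 9 such domains. Middle late domains had a higher share than other late domains on 19 of 19 autosomes, by 36.8 ± 16.7 percentage points (SD), and middle early domains a lower share than other early domains on 19 of 19, with a mean difference of -30.7 ± 14.3 points. Between the middle classes there was no common direction, with middle early domains higher on 9 and lower on 10 autosomes and a mean difference of 2.78 ± 13.6 points. No test was run on these differences, because a resampling of regions or chromosomes is not a replicate of the experiment.

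**Figure D2:**
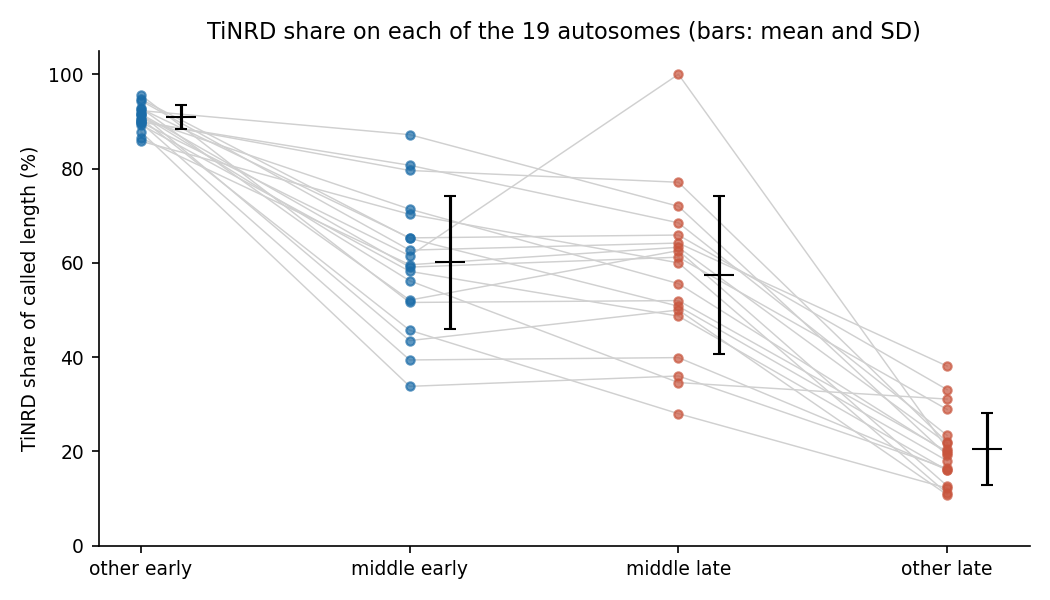
TiNRD share of the called length (%, vertical axis) in other early, middle early, middle late and other late domains, with 1 point per autosome, thin lines joining the same autosome, and black bars for the mean and SD over 19 autosomes. The middle classes overlap (60.2% ± 14.1 and 57.4% ± 16.8), and the other early (91.3% pooled) and other late classes (19.5% pooled) lie above and below them.

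Close to 0, late domains were more often tight than early ones, by less where domains with repeated sequence were left out. Of the 23 late domains with values between -0.20 and 0, 17 were mostly in TiNRDs and TiNRDs took 78.6% of their called length. Of the 23 early domains between 0 and 0.20, 11 were mostly in TiNRDs, with 43.9% of the length. Going later from 0, the share fell from 78.6% to 65.6%, to 52.6% at the edge of the class, and to 10.8% below -1. Going earlier it did not rise in step, with 43.9%, 60.6% and 59.1% within the class, then 76.5% just outside it and 96.6% above 1. Of the 23 late domains next to 0, 4 lay on chromosome 12 in 1 TiNRD with an index of 1.33, and 10 had under 90% single-position 50-mers. Without such domains 9 of 13 late and 9 of 16 early domains were mostly in TiNRDs, with 70.3% and 52.6% of the length, a comparison chosen after seeing the data.

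**Figure D3:**
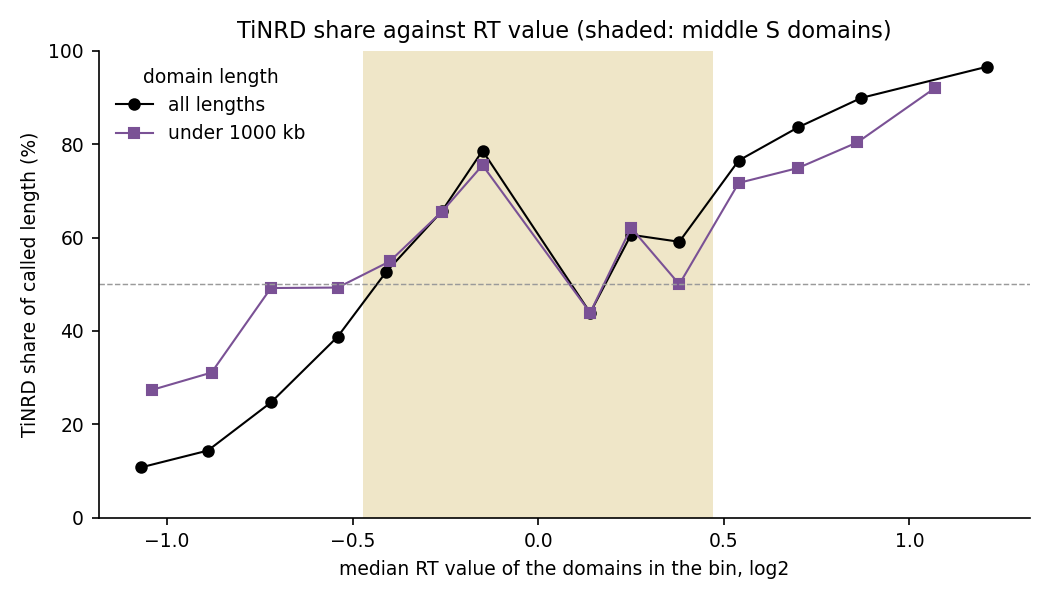
TiNRD share of called length (%, vertical axis) against the median RT value of the domains in each bin (log2, horizontal axis), for domains of all lengths (black circles) and under 1000 kb (purple squares), with the range of middle S domains shaded. Within the shading the share is highest just below 0 (78.6%) and lowest just above it (43.9%), while outside it rises from 10.8% to 96.6%.

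Middle S domains were short. Their median length was 450 kb in the early class (quartiles 350 and 600) and 500 kb in the late class (quartiles 400 and 700), compared with 1150 and 1300 kb for other early and late domains, and 355 of the 400 were under 1000 kb. Length rose with the absolute RT value, with a Spearman rho of 0.25 in middle early and 0.32 in middle late domains. In other early and other late domains rho was 0.61 and 0.40. Length and RT value come from the same list, so the short length is a description and not a result apart from the rule. The authors smoothed the wrapping index over 10 bins of 100 kb, a span of 1000 kb, so the index of a shorter domain draws on sequence around it. Of the 290 members that lay in a single NRD, 19 lay in an NRD under 1000 kb, the shortest of 400 kb. A single NRD held the whole domain for 149 middle early (73.4%) and 141 middle late domains (71.6%), and the NRD reached past both ends in 69.0% and 68.5%, compared with 46.7% of other early and 43.6% of other late domains. The NRDs that held middle late domains whole had a median length of 4900 kb when tight and 3900 kb when loose, and those that held middle early domains had 2550 kb when tight and 5300 kb when loose.

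Length moved with the wrapping kind in each class. Under 500 kb, 55 of 110 middle early domains (50.0%) and 60 of 92 middle late domains (65.2%) were mostly in TiNRDs, beside 11 of 28 other early (39.3%) and 12 of 25 other late domains (48.0%) of this length. From 500 to 1000 kb 42 of 75 middle early and 44 of 78 middle late domains were, beside 84.5% and 42.2%. From 1000 kb up they were 15 of 18 (83.3%) and 14 of 27 (51.9%), beside 95.9% and 14.7%. Short domains of every class thus had mixed wrapping, and the part of length in the mixture of the middle classes was not tested apart from that of the RT value.

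The neighbours of middle S domains were mostly of the opposite sign, as were those of the other domains. A neighbour of the same sign lay at least 50.0 kb away in every class. Every touching neighbour was thus of the opposite sign, and the shares describe the list. Of the middle early domains 133 (65.5%) touched a late domain on both sides, and of the middle late domains 98 (49.7%) touched an early domain on both sides, compared with 60.1% of other early and 47.4% of other late domains. Middle early domains set between late neighbours were mostly in TiNRDs in 49.6%, and middle late domains between early neighbours in 70.4%. Where 1 neighbour was of the same sign, across a gap without a call, the shares were 66.1% (37 of 56) for middle early and 48.6% (35 of 72) for middle late domains. The same direction held in other early domains (87.2% and 97.3%) and in other late domains (31.4% and 20.2%). Between these settings the wrapping kind thus went with the timing of the surroundings in every class, and this was not particular to middle S domains. With the same sign on both sides the shares were 83.3% (5 of 6) for middle early and 46.7% (7 of 15) for middle late domains. For other late domains the share was 3.85% (2 of 52). For other early domains it was 85.7% (18 of 21), not above the 87.2% between late neighbours. Most members lay in 1 NRD that reached past both ends, so a member and its surroundings often share 1 call. The absolute RT values of the neighbours had a median of 0.74 for middle early and 0.67 for middle late domains. For other early and other late domains the medians were 0.72 and 0.73. That these lie above the threshold follows from the rule, which sets most domains above it.

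Middle S domains had another middle S domain next to them in 176 of 400 cases (44.0%), beside 41.2% of other early and 44.2% of other late domains. In the order of domains along the autosomes, 224 had no middle S domain next to them, 52 pairs and 15 groups of 3 followed each other, and the rest formed 2 groups of 4, 1 of 5 and 2 of 7. The longest run, chr14:40800001-45100000, had 7 domains with values of 0.27, -0.12, -0.26, -0.37, 0.20, -0.25 and -0.29. All 7 lay in 1 TiNRD with an index of 0.94. Its first domain held Mat1a, an enzyme that makes S-adenosylmethionine in liver, and Tspan14, a tetraspanin, and its last domains held Ear1, a ribonuclease of eosinophils, Ang5, of the angiogenin family, and the prostaglandin receptors Ptger2 and Ptgdr. Between them lay arrays of genes known only by numbers, such as Gm8068, Gm7995 and Gm8094. In this run the share of 50-mers with a single position on the chromosome was between 11.9% and 78.7%. No reads were analysed here, and the part of repeated sequence in either list was not tested.

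**Figure D4:**
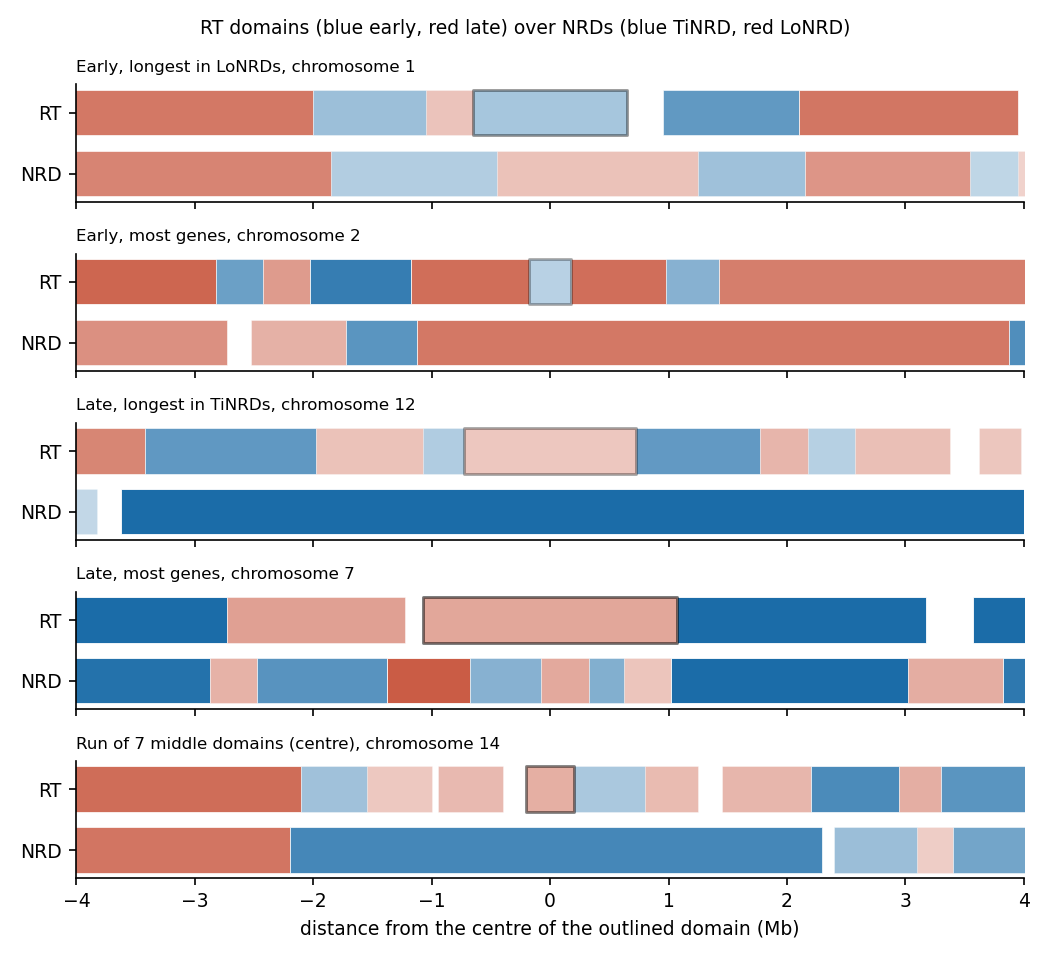
RT domains (upper bars, blue early, red late) and NRDs (lower bars, blue TiNRD, red LoNRD) within 4 Mb of the centre of 5 named middle S domains, outlined in black, against distance in Mb; stronger color means a larger absolute value and white a stretch without a call. The outlined domains are pale because members were chosen for a small absolute RT value. In the maps of chromosomes 2, 12 and 14 a single NRD spans the outlined domain and reaches past both ends.

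The wrapping kind of middle S domains followed their A/T content. The median A/T content was 58.1% in middle early domains (quartiles 56.8 and 59.7) and 58.3% in middle late domains (quartiles 56.3 and 59.6), between the 56.1% of other early and the 60.3% of other late domains. Among domains under 58% A/T, 98 of 98 middle early and 89 of 91 middle late domains were mostly in TiNRDs. Among those of 59% and over, 0 of 74 middle early and 6 of 73 middle late domains were. In the range between, 14 of 31 (45.2%) and 23 of 33 (69.7%) were mostly tight.

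The other domains were divided in the same range of A/T content. Under 58% A/T, 113 of 119 other late domains (95.0%) were mostly in TiNRDs, and from 59% up 3 of 49 other early domains (6.12%) were. Between 58% and 59%, where the division fell, 39 of 50 other early (78.0%) but 33 of 68 other late domains (48.5%) were mostly tight. Across the 400 members A/T content and the wrapping index had a Spearman rho of -0.87 and a Pearson r of -0.86. These domains share chromosomes, libraries and NRDs, so the coefficients are a description. On 19 of 19 autosomes middle early domains had a higher median A/T content than other early domains, by 2.00 ± 0.991 percentage points (SD), and on 18 of 19 middle late domains had a lower one than other late domains, with a mean difference of -2.04 ± 1.30 points. MNase is known to cut A/T-rich DNA more readily, and the part of this preference in the index was not tested here.

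**Figure D5:**
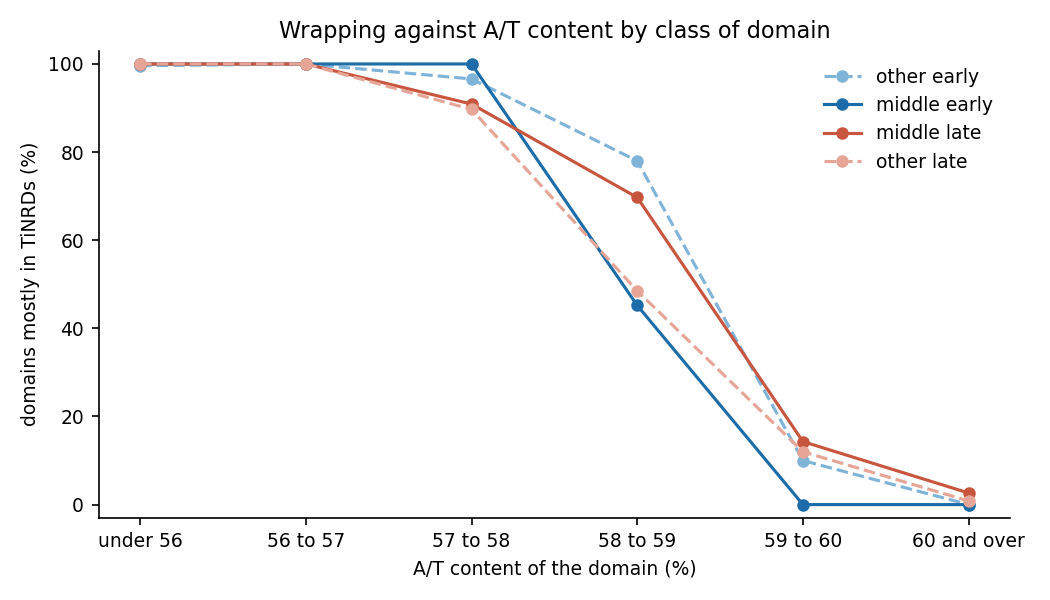
Share of domains mostly in TiNRDs (%, vertical axis) in 6 classes of A/T content (%, horizontal axis) for middle early and middle late (solid lines) and other early and other late domains (dashed lines). All 4 lines are at or near 100% under 57% A/T and fall to between 0% and 2.63% at 60% and over.

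Members in LoNRDs were also richer in repeats, as were the other domains in LoNRDs. Soft-masked repeats made up a median of 27.6% of middle early domains in TiNRDs and 36.5% of those in LoNRDs, and 26.2% and 36.8% of middle late domains. CG dinucleotides numbered 8.93 per kb in tight and 6.21 per kb in loose middle late domains, and were likewise denser in tight than in loose middle early domains, where the loose ones had 7.02 per kb. The highest A/T content of an early member, 64.3% in chr1:140250001-140600000, went with an index of -0.93 and no protein-coding gene start. The lowest of a late member, 51.5% in chr6:114050001-114450000, went with an index of 0.94. That domain held the start of Hrh1, a histamine receptor, and it touched early domains of 1.16 and 0.54. At the other ends, chr11:109200001-109700000, an early member with 53.3% A/T and an index of 0.78, held Gna13, a G protein subunit, Rgs9, a regulator of G protein signaling, and Arsg, a lysosomal sulfatase. The late member chr17:40000001-40350000, with 63.0% A/T and an index of -0.82, held Crisp1 and Crisp3, secreted proteins of the reproductive tract and glands, and Pgk2, the phosphoglycerate kinase of sperm.

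Gene density of the pooled classes lay between that of early and late domains and kept their order. Middle early domains held 900 protein-coding gene starts, 7.95 per Mb, and middle late domains 704, 5.73 per Mb, compared with 15.6 per Mb in other early and 3.30 per Mb in other late domains. Over the autosomes the density was 7.61 ± 1.99 per Mb in middle early and 5.69 ± 2.66 per Mb in middle late domains (SD, n = 19), with the early class higher on 13 and lower on 6. It was lower in middle early than in other early domains on 19 of 19 autosomes, and higher in middle late than in other late domains on 13 of 19. No gene start lay in 20 middle early (9.85%) and 38 middle late domains (19.3%), beside 9.64% of all domains, 0.366% of other early and 14.4% of other late domains. These shares are not per Mb, and middle late domains had a median length of 500 kb against 1300 kb for other late domains. The part of length in them was not tested. Wrapping kind and gene density went together less clearly than wrapping kind and A/T content, with 8.76 genes per Mb in tight and 6.80 in loose middle early domains, and 5.41 and 6.17 in middle late domains.

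Of all 19954 protein-coding genes placed in autosomal RT domains, 1604 (8.04%) began in a middle S domain. None of 30 placed pluripotency factors did, nor any of 39 Hox genes, the homeodomain factors that pattern the body axis. Of 53 placed germ layer and lineage transcription factors 3 did (5.66%): Pax6, a master gene of eye and forebrain, Nkx2-1, needed for thyroid, lung and ventral forebrain, and Emx2, of cortex and urogenital tract. All 30 placed pluripotency factors, all 39 Hox genes and 43 of the 53 lineage factors began in other early domains. These domains held 14651 of all 19954 placed genes. The lists are small, Hox genes lie in clusters, and no test was run, so no difference from the share of all genes is claimed.

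The domains of Pax6, Nkx2-1 and Emx2 shared a mixed wrapping. The Pax6 domain, chr2:105400001-105850000, had an RT value of 0.37, lay 66.7% in a TiNRD and held no other protein-coding gene start. Nkx2-1 lay in chr12:56200001-56700000, at 0.28, with 60.0% in TiNRDs and a mean index of 0.04. Emx2 lay in the longer chr19:59200001-60550000, at -0.44, with 51.9% in TiNRDs. Their promoters, from 250 bases before to 50 bases after the start in the RefSeq annotation of GRCm38.p6, are given 5′ to 3′ on the strand of the gene with CGs in capitals. For Pax6 the furthest upstream of the listed starts was taken.
Pax6, chr2:105668646-105668945, plus strand: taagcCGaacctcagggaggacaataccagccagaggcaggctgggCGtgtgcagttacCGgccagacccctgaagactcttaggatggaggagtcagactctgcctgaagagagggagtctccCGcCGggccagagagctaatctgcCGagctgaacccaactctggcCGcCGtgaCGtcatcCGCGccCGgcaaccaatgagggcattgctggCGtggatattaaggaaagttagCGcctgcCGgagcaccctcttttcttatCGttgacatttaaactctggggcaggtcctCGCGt
Nkx2-1, chr12:56536859-56537158, minus strand: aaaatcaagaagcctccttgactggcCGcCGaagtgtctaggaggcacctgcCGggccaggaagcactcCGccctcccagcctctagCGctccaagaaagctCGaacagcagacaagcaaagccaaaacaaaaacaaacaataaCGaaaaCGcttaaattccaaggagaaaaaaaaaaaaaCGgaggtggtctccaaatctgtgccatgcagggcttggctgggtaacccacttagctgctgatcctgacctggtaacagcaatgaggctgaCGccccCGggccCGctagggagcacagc
Emx2, chr19:59458440-59458739, plus strand: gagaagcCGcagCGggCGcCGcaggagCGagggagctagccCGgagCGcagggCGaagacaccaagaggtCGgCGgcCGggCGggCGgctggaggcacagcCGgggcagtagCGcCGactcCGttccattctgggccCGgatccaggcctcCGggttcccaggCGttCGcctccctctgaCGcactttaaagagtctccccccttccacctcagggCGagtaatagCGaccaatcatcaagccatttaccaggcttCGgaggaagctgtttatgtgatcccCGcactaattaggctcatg
The Pax6 promoter held 18 CGs, Nkx2-1 12 and Emx2 26. Of 31396 autosomal promoters of this length 30.3% held at least as many as Pax6, 40.1% as many as Nkx2-1 and 17.4% as many as Emx2, and the median was 7. A/T made up 41.3%, 46.3% and 35.7% of the 3 promoters, below the content of every middle S domain as a whole, whose lowest was 51.5%.

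Of 32 placed factors that license and fire replication origins, 3 (9.38%) began in middle S domains, beside 8.04% of all placed genes. Mcm3, a subunit of the MCM helicase, lay in chr1:20650001-21400000 at 0.37, wholly in a TiNRD with an index of 0.38. Cdc7, the kinase that activates this helicase, lay in the late chr5:106950001-107450000 at -0.28, also wholly in a TiNRD. Orc5, a subunit of the origin recognition complex, lay in chr5:22350001-22750000 at 0.34, with 62.5% in LoNRDs. Of 32 placed nucleosome chaperones and remodelers only Chd7, a chromodomain remodeler, began in a middle S domain, chr4:8550001-9100000, at 0.28 and in a TiNRD. Of 69 placed ribosomal protein genes 3 did, Rpl34, Rpl15 and Rps24, in early members with values of 0.31, 0.44 and 0.45 that lay wholly in TiNRDs.

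Olfactory receptor genes, the largest of the gene lists, had the highest count in these domains. Of 1022 placed, 121 (11.8%) began in a middle S domain, 51 in early and 70 in late members, beside 8.04% of all placed genes. These 121 lay in 10 domains, so that a few clusters decide the share. Most olfactory receptor genes, 694, began in other late domains, and 207 in other early domains. Of all 19954 placed genes, 3699 began in other late and 14651 in other early domains. The early member chr2:86150001-86500000, with 22 genes from Olfr1042 on, all of them olfactory receptors, had a value of 0.10 between strongly late domains, 1 of them at -1.01. It lay wholly in a LoNRD with an index of -0.90 and had 64.0% A/T. A second cluster on the same chromosome, chr2:87300001-87750000, held 20 olfactory receptor genes and Pramel7, at 0.46 and in the same kind of wrapping with 62.2% A/T. The late member chr7:108250001-108950000 held 24, at -0.27, with 78.6% in LoNRDs. In contrast chr11:58450001-58800000 held 17 at -0.29, wholly in a TiNRD. Of 358 placed genes of zinc finger proteins named Zfp, 6 (1.68%) began in a middle S domain, beside 8.04% of all placed genes. Other early domains held 334 of the placed Zfp genes (93.3%), beside 14651 of all 19954 placed genes. No test was run on these shares. Zfp644 at 0.44 and Zfp951 at -0.14 lay in TiNRDs, and Zfp558 at -0.43 and Zfp40 at -0.27 in LoNRDs. The remaining Zfp genes in middle S domains lay in domains mostly or wholly in TiNRDs.

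The longest middle early domains held large genes and were partly or wholly tight. In chr6:53450001-55300000, 1850 kb at 0.38, lay 16 gene starts, among them Chn2, a GTPase-activating protein for Rac, and all of it was in a TiNRD with an index of 0.66. In chr6:93450001-95100000, 1650 kb at 0.40, lay Magi1, a scaffold of cell junctions of 608 kb, and Lrig1, which dampens growth factor receptors, and 3.03% of it lay in LoNRDs and the rest in TiNRDs. As the remaining domain of the 3, chr10:17450001-18950000, 1500 kb at 0.40, was taken first of a pair of equal length, the other being chr19:15750001-17250000 at 0.29 with 73.3% in TiNRDs. It was divided, with 53.3% in TiNRDs and 46.7% in LoNRDs, and held Nhsl1, Arfgef3 and Heca. With 17 gene starts, chr1:63950001-65300000 at 0.41 was among the 3 early members with most genes. It held Creb1, the factor that answers to cAMP, Klf7 and Pikfyve, a lipid kinase, and had 77.8% in TiNRDs.

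Early members in loose wrapping were A/T-rich. The longest with at least 80% in LoNRDs was chr1:52700001-54000000, 1300 kb at 0.23, with 59.7% A/T, an index of -0.13 and 15 gene starts, among them Pms1, of the mismatch repair family, and Dnah7a, an axonemal dynein. It was followed by chr9:3250001-4400000, 1150 kb at 0.32, with 61.2% A/T and an index of -0.68, where Gucy1a2, a subunit of guanylate cyclase, and Alkbh8, a tRNA-modifying enzyme, lay. The next, chr1:10750001-11700000 at 0.45, held Prex2, an exchange factor for Rac, at 60.9% A/T and an index of -0.53.

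Among the late members, the longest lay mostly in LoNRDs. In chr7:21800001-23950000, 2150 kb at -0.44, were 53 gene starts, the most of any member, with vomeronasal receptors such as Vmn1r139 and Vmn1r173, which sense pheromones, and Nlrp5, a maternal gene of the early embryo. TiNRDs took 44.2% and LoNRDs 55.8% of it, and 27.2% of its 50-mers had a single position. In chr10:28250001-30350000, 2100 kb at -0.44, all in a LoNRD of -0.68 with 61.7% A/T, lay Themis, a gene of T cell development, and Rspo3, which strengthens Wnt signals. The early member just inside the threshold, with Ptprk, a receptor phosphatase, ended where this domain began and lay in the same LoNRD. The last of the 3 longest, chr8:127250001-129100000 at -0.47, held Nrp1, a receptor of axon guidance and vessels, and Itgb1, an integrin, with 64.9% in LoNRDs.

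Late members in tight wrapping had lower A/T content. The longest wholly in TiNRDs, chr12:19200001-20650000 of 1450 kb, had a value of -0.13, an index of 1.33 and 54.9% A/T, with 39.0% of its 50-mers at a single position and 1 protein-coding gene start, Gm21863. As long was chr18:4500001-5950000, at -0.29 with an index of 0.34 and 56.6% A/T, which held Zeb1, a factor of epithelial to mesenchymal transition, and Svil, an actin-binding protein. The next, chr2:170750001-172150000 of 1400 kb, lay between early domains of 1.00 and 0.82, with a value of -0.39, an index of 1.21 and 56.4% A/T, and its 1 gene start was that of Cbln4, an organizer of synapses. Of equal length was chr7:134750001-136150000, at -0.31 with an index of 1.05. The defensin cluster of chr8:20850001-22000000, with 43 gene starts that included Defb1, Defb50 and Defb33, peptides that kill microbes, had a value of -0.35 and 91.3% in TiNRDs at 59.4% A/T, with 46.7% of its 50-mers at a single position.

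Single-position 50-mers had a median share of 94.8% in middle early and 94.4% in middle late domains. Fewer than 90% of 50-mers had a single position on the chromosome in 31 of 203 middle early (15.3%) and 44 of 197 middle late domains (22.3%), compared with 9.52% of other early and 23.8% of other late domains. Without these members 58.1% of the middle early and 63.4% of the middle late domains were mostly in TiNRDs, shares that differed from those of all members by less than the SD over autosomes.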

How the data were processed

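H3-wrapping-seq (4 libraries) and RT (8 libraries) of R1 cells were used as the domain lists that the authors deposited; 39 samples belong to the study, and the others were not analysed here. The authors trimmed adaptors with cutadapt 4.3, aligned reads to mm10 with Bowtie2 2.5.1 and filtered out duplicates and poorly mapped reads. The NRD value is a score deposited by the authors, the z-score in 100 kb bins of the relative deviation between fragments above and below 140 bp, smoothed over 10 bins. The RT value is a log2 ratio deposited by the authors, (S1 + S2)/(S3 + S4) in 50 kb windows, quantile normalized. Both were divided into domains with FindHiCCompartments. Whether the RT list pools both experiments is not given in the sources used here.

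Sources of the comparisons were the 2 lists, the GRCm38 sequence and 21951 protein-coding genes of its GENCODE annotation, of which 19954 began in an autosomal RT domain of the set. Each domain was read in 10 kb bins against the NRDs, and the overlap was checked against bedtools 2.31.1 (difference 0 Mb). A/T content leaves out unassembled bases, and a 50-mer had a single position when it occurred once on the forward strand of its chromosome. Genes were placed by their start. Python 3.11.15, numpy 2.4.6 and pandas 2.3.3 were used, and the member rule and the 50-mer count were tested on simulated data. No test was run, since the lists used here hold 1 value per domain and no replicates. Tracks of single experiments were not analysed here.

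The members and gene lists were chosen with earlier results of these data known, and bins of RT value, length, A/T content and neighbours were set after seeing the data. Domains were named by rule: for each sign the 1 closest to 0, the 3 longest, the 3 with most gene starts, the 3 longest with at least 80% in the opposite kind of NRD, and the highest and lowest A/T content; also the longest run and 2 domains on either side of the threshold. Genes named in them were among the 6 longest, and up to 8 genes per list. A gene and a sequence that these rules name are not reported here.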

Additional observations from a re-analysis of the deposited data

How the results depend on the processing

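Leaving out each autosome in turn moved the TiNRD majority of middle early domains between 53.8% and 57.3% (55.2% with all), the LoNRD majority of middle late domains between 38.1% and 42.2% (40.1%), the TiNRD share of early length between 56.9% and 60.1% (58.1%) and the LoNRD share of late length between 39.7% and 43.8% (41.8%). Genes per Mb of all middle S domains stayed between 6.57 and 6.99 (6.79), median A/T content between 58.1% and 58.3% (58.2%), median length between 450 and 500 kb (450) and the share set between touching neighbours of opposite sign between 56.3% and 59.4% (57.8%). A threshold at the 10th percentile left 160 domains in place of 400, and the LoNRD majority of middle late domains was then 30.8%. With domains of at least 1000 kb, the TiNRD majority of middle early domains was 83.3% and their TiNRD share of length 78.8%, from 18 domains, and the cause was not tested. The median length was 700 kb with domains of at least 500 kb and 1250 kb with those of at least 1000 kb, as the selection itself sets. The remaining alternatives (33rd percentile, thresholds per sign, all chromosomes, an 80% majority, NRDs of at least 500 kb, whole gene bodies, sequence outside repeats and, chosen after seeing the data, domains with at least 90% single-position 50-mers) moved each of these values by less than its SD over autosomes, and the number of domains by less than 1.5 times. The SD is a wide limit, at 18.6 points for the LoNRD majority of middle late domains, which the 80% majority moved from 40.1% to 28.4%. No paired analysis was possible because the lists used here hold 1 value per domain and no replicate column. The read number behind a domain is not in these lists, smoothing over 1000 kb is longer than 355 of the 400 domains, and the part of repeated sequence was not tested.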
